A study of Mus musculus with 48 samples.

Results

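Hearts that carried the Myh6-driven Cre transgene and no floxed allele were set against hearts of wild-type littermates. The comparison used 12 of the 48 deposited libraries, chosen by their titles: 6 titled Cre CON and 6 titled WT. Cre CON mice were MHCαCre+/-, that is, they carried the transgene on 1 of the paired chromosomes, and WT mice were littermates without it. All 48 mice were male and on the C57BL/6 background, and RNA was taken from both ventricles (biventricular heart tissue). The other lines paired Cre-carrying mice with littermates that had the same floxed alleles and no Cre (MHCαCre-/-): CBK (Bmal1flox/flox/MHCαCre+/-) with BMAL1 FLOX, CEK (E4bp4flox/flox/MHCαCre+/-) with E4BP4 FLOX, and CBK/CEK (both genes floxed) with BMAL1/E4BP4 FLOX. The sources used here give no age, no hour of collection and no copy number of the transgene.

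Cre is a bacteriophage recombinase that cuts and rejoins DNA at loxP sites. The Myh6 promoter (α-myosin heavy chain, written MHCα in the genotype) is active in cardiomyocytes, and mice with this transgene alone are the control for what Cre does where no loxP site has been placed. In the heart, cardiomyocytes burn fatty acids in their mitochondria, fibroblasts lay down the collagen matrix, and resident and recruited macrophages clear debris. RNA of whole ventricles holds all these cells, so fewer cells of a type and less RNA per cell cannot be told apart. Cre itself was not a row of the mouse count table, and the presence of the transgene in each library was therefore not tested.

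Assigned counts ran between 14828331 and 19537993 in 11 of the 12 libraries, and WT replicate 1 held 126338949. Arntl (BMAL1), a core clock activator, averaged 1.68 ± 0.839 CPM (counts scaled to a common total per library, with TMM) in Cre CON and 1.06 ± 0.322 CPM in WT (SD, n = 6 each; edgeR adjusted p = 0.491). Nfil3 (E4BP4), a clock-controlled repressor, averaged 10.1 ± 1.79 CPM in Cre CON and 10.4 ± 1.47 CPM in WT (adjusted p = 0.958). Myh6, whose promoter drives the transgene, averaged 19625 ± 1753 CPM in Cre CON and 20249 ± 1161 CPM in WT (adjusted p = 0.901). The mitochondrial genome supplied 25.4% ± 1.47 of counts in Cre CON and 26.2% ± 2.72 in WT (SD, n = 6 each), a difference of -0.863 percentage points (two-sided exact permutation p = 0.528, where the smallest possible is 0.00217). Cre CON replicate 1 stood apart from the other Cre CON libraries in many genes below, and the results are therefore given with and without it.

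Few genes were called with Cre alone. Of 14173 genes tested with edgeR's quasi-likelihood test, 10 (0.0706%) passed a Benjamini-Hochberg adjusted p of 0.05. Higher in Cre CON were 7 (0.0494%): the matrix genes Col3a1, Col5a1 and Adamts2 and Lyz2, Ctss, Itgb2 and Clec4a1, which are known from macrophages and other myeloid cells. Lower were 3 (0.0212%): Efnb3, Il15 and Gm34302. Every change was under 2-fold, between 0.42 and 0.93 in absolute log2 fold change. At an unadjusted p under 0.05 there were 1340 genes (9.45%), of which 720 (5.08%) were higher and 620 (4.37%) lower in Cre CON.

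The RefSeq promoters of genes that rose are shown as the stretches that lie before their transcripts, 2 for matrix genes and 2 for myeloid genes, from 250 bases before to 50 bases after the start on build GRCm38.p6. Col3a1 lies on the plus strand at chr1:45311288-45311587, Col5a1 on the plus strand at chr2:27886175-27886474, Lyz2 on the minus strand at chr10:117282223-117282522, and Ctss on the plus strand at chr3:95526536-95526835. Capitals mark the motif TATAAA in Col3a1, the motif GGGCGG in Col5a1 and the motif GAGGAA in Ctss. Each was searched on both strands, where it reads TTTATA for Col3a1, CCGCCC for Col5a1 and TTCCTC for Ctss on the other strand. Lyz2 was searched for GAGGAA too and had no match.
Col3a1: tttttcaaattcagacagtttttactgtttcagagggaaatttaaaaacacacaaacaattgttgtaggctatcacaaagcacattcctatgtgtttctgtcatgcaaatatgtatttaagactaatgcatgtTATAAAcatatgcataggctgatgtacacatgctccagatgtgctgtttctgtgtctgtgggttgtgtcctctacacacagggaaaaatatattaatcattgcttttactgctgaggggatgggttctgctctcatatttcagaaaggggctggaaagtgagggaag
Col5a1: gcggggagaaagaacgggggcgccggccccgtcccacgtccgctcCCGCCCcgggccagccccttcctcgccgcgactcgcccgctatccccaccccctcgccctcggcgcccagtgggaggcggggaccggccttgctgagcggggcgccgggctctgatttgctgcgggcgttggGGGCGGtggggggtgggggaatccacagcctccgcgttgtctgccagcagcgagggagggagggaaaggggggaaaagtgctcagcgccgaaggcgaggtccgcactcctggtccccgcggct
Lyz2: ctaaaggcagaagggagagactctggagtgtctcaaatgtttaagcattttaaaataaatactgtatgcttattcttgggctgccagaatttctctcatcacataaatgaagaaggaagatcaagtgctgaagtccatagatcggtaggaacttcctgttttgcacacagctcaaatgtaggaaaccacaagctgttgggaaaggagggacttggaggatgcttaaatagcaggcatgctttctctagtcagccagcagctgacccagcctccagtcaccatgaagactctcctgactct
Ctss: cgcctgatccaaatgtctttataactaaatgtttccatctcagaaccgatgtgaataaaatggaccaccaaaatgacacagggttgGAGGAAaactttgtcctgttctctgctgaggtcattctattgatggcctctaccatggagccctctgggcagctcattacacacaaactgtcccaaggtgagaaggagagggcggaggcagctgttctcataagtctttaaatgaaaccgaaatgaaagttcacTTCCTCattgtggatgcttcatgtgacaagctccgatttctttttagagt
Among 32851 RefSeq mouse promoters of the same 300 bases, 13.6% held TATAAA, 35.7% GGGCGG and 28.3% GAGGAA on either strand. Col3a1 held TATAAA 1 time, Col5a1 held GGGCGG 2 times and GAGGAA 1 time, and Ctss held GAGGAA 2 times, besides TATAAA and GGGCGG 1 time each. These matches describe letters in a window and are no evidence of a bound factor.

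Col3a1, which encodes the chain of type III collagen, had 190.3 CPM in its lowest, 230.1 in its median and 274 in its highest Cre CON library, against 112, 149 and 149.8 CPM in WT. All 6 Cre CON libraries lay above all 6 WT libraries. Its log2 fold change was 0.71 (SE 0.09, adjusted p = 0.00115), and it stayed past the threshold with any 1 of the 12 libraries left out (highest adjusted p = 0.00817). Col5a1, a chain of the type V collagen that helps to start fibrils, had 39.6, 42.8 and 47.5 CPM in the lowest, median and highest Cre CON libraries, against 26.2, 31.7 and 37.4 CPM in WT. Again the groups did not overlap, with a log2 fold change of 0.43 (SE 0.08, adjusted p = 0.0208). Adamts2, the protease that trims procollagens, had 22.9, 30.4 and 33.4 CPM in Cre CON, against 17.1, 19.7 and 23.5 CPM in WT. The lowest Cre CON library lay just under the highest WT library, and the log2 fold change was 0.56 (SE 0.10, adjusted p = 0.0208).

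Lyz2, a lysozyme of macrophages and granulocytes, had 135, 162 and 215 CPM in the lowest, median and highest Cre CON libraries, against 102, 112 and 124.3 CPM in WT. The groups did not overlap, and the log2 fold change was 0.57 (SE 0.09, adjusted p = 0.0208). Reads that align equally well to Lyz2 and its neighbour Lyz1, a near-identical copy, can be set apart as non-unique. Such records were left out, so the level of either gene may be too low. Ctss, the lysosomal protease cathepsin S, had 18.3, 19.6 and 21.3 CPM in Cre CON, against 10.4, 13.7 and 16.5 CPM in WT. Itgb2, the β2 integrin shared by leukocyte adhesion receptors, had 6.2, 7.88 and 9.13 CPM in Cre CON, against 3.55, 4.51 and 5.82 CPM in WT. Clec4a1, a C-type lectin receptor of myeloid cells, had 3.96, 4.34 and 5.56 CPM in Cre CON, against 1.88, 2.28 and 3.21 CPM in WT. In all 3 the lowest Cre CON library lay above the highest WT library. The log2 fold change was 0.53 (SE 0.09, adjusted p = 0.0208) for Ctss, 0.75 (SE 0.13, adjusted p = 0.0208) for Itgb2 and 0.88 (SE 0.16, adjusted p = 0.0344) for Clec4a1.

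Efnb3, a membrane-bound ephrin ligand, had 64.6, 81.2 and 98.8 CPM in its lowest, median and highest Cre CON libraries, against 106, 111 and 124.1 CPM in WT. The highest of the 6 Cre CON values was that of replicate 1, and the groups did not overlap (log2 fold change -0.47, SE 0.08, adjusted p = 0.0208). Il15, the cytokine that sustains natural killer cells and memory T cells, had 24.5, 29.6 and 35.4 CPM in Cre CON, against 37.8, 39.6 and 45.4 CPM in WT. Here too Cre CON replicate 1 was nearest to WT without reaching it, and the log2 fold change was -0.42 (SE 0.08, adjusted p = 0.0393). Gm34302, a predicted protein-coding gene, had 3.92, 4.45 and 6.48 CPM in Cre CON, against 6.3, 9.19 and 12.2 CPM in WT. The groups met through Cre CON replicate 1 alone, and the log2 fold change was -0.93 (SE 0.16, adjusted p = 0.0208). In 8 of the 10 genes the groups did not overlap, which was so for 91 of all genes tested (0.642%). The 10 were called from the same libraries, so this count is a description.

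**Figure D1:**
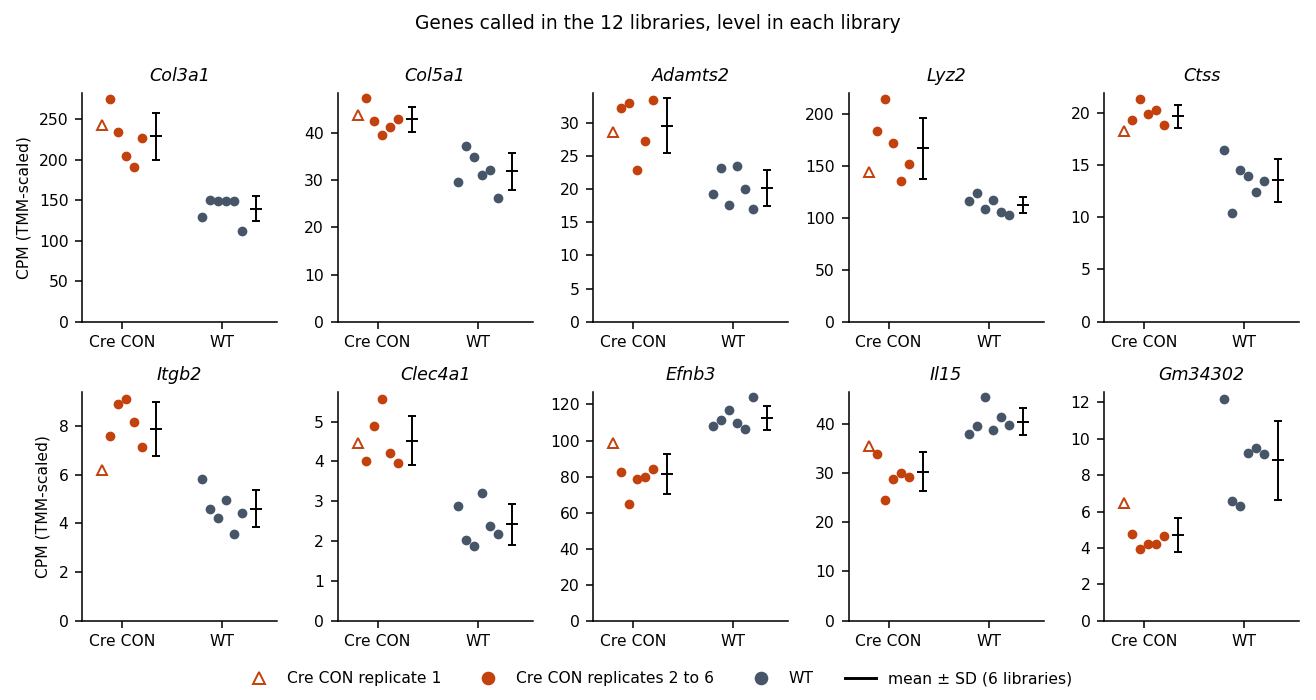
Level of the 10 called genes in each library, in TMM-scaled CPM on linear axes from 0, with Cre CON (6 points, replicate 1 as the open triangle) left of WT (6 points) and bars for mean ± SD. Col3a1 lies between 190.3 and 274 CPM in Cre CON and between 112 and 149.8 CPM in WT.

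All 10 genes kept their direction in every setting tried, but the number of calls moved with the test and with single libraries. DESeq2 called 128 genes, the fit with no filter on low counts 59, and the fit of all 48 libraries 3, none of them among the 10; leaving out Cre CON replicate 2 or 3 left 1 and 3 calls, WT replicate 3, 5 or 6 left 2, 2 and 1, and Cre CON replicate 4 left 8, of which 4 were among the 10.

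With Cre CON replicate 1 left out, 93 of 14311 genes (0.65%) were called, 54 higher (0.377%) and 39 lower (0.273%) in the other Cre CON libraries, and all 10 genes above were among them. In 50 of the 93, Cre CON replicate 1 lay within the WT range: 28 of the 54 higher genes and 22 of the 39 lower genes. The share of all genes tested with replicate 1 within the WT range was not computed. The 93 were also chosen by a fit that left replicate 1 out, so these counts are a description. Replicate 1 was left out with earlier results of these data known, so the adjusted p-values without it may be too small. The other 5 Cre CON libraries did not overlap WT in 72 of the 93 genes, which was so for 246 of all genes tested in that set (1.72%). The 93 were called from those same libraries, so this count too is a description. More than 2-fold higher were 9 genes and more than 2-fold lower were 5.

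Dmd, which encodes dystrophin, the protein that ties the contractile apparatus to the cell membrane, had the smallest p-value of the 93 and fell. Its level was 53.8 CPM in Cre CON replicate 1 and between 28.6 and 36.5 CPM in the other Cre CON libraries, against 55.8 to 63.8 CPM in WT. The 5 other Cre CON libraries held well under the lowest WT library, while replicate 1 lay just under it. Without replicate 1 the log2 fold change was -0.90 (SE 0.07, edgeR adjusted p = 8.3e-07), and with it -0.75 (SE 0.13, adjusted p = 0.0577). Among the 23 genes of the dystrophin complex and the costamere, Dmd was the only one called in either direction, and the median log2 fold change of the list was 0.03, against 0.00 for all genes tested.

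Ndnf, a secreted factor with neurotrophic activity, rose most clearly. It had 7.88 CPM in Cre CON replicate 1 and 17.1 to 23.4 CPM in the other Cre CON libraries, against 4.83 to 10.1 CPM in WT. Only replicate 1 fell inside the WT range, and without it the log2 fold change was 1.54 (SE 0.15, adjusted p = 6.89e-05). Ndrg4, a gene of heart and brain, had 246 CPM in Cre CON replicate 1 and 419 to 492 CPM in the other Cre CON libraries, against 285 to 388 CPM in WT. Replicate 1 was thus below all WT libraries and the others above them (log2 fold change 0.54 without it, SE 0.08, adjusted p = 0.00191). Nt5e, the ectoenzyme CD73 that makes adenosine from AMP, showed the same split, with 8.71 CPM in replicate 1 and 12.5 to 16.8 CPM in the other Cre CON libraries, against 9.39 to 11.4 CPM in WT. Without replicate 1 its log2 fold change was 0.61 (SE 0.10, adjusted p = 0.00314).

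Immp2l, a peptidase subunit of the mitochondrial inner membrane, had 16.4 CPM in Cre CON replicate 1 and 7.87 to 10.7 CPM in the other Cre CON libraries, against 14.4 to 19.4 CPM in WT. Pfkfb1, a bifunctional enzyme that sets the level of fructose 2,6-bisphosphate, had 22 CPM in replicate 1 and 10 to 14 CPM in the others, against 18.9 to 31 CPM in WT. Dcakd had 46.1 CPM in replicate 1 and 26.2 to 33.9 CPM in the others, against 44.7 to 49.7 CPM in WT. In all 3 genes replicate 1 sat within the WT range and the other 5 Cre CON libraries below it. Without replicate 1 the log2 fold change was -0.90 for Immp2l (adjusted p = 6.89e-05), -1.01 for Pfkfb1 (adjusted p = 0.000264) and -0.59 for Dcakd (adjusted p = 0.000182). Exoc2, a subunit of the exocyst, had 16.1 CPM in replicate 1 and 10.3 to 11.7 CPM in the others, against 13.8 to 17.8 CPM in WT (log2 fold change -0.58, adjusted p = 0.00191). Kcnv2, a modifier subunit of potassium channels, had 15 CPM in replicate 1 and 5.77 to 7.78 CPM in the others, against 8.12 to 14.3 CPM in WT. Its replicate 1 exceeded every WT library and its log2 fold change without that library was -0.79 (adjusted p = 0.00417).

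**Figure D2:**
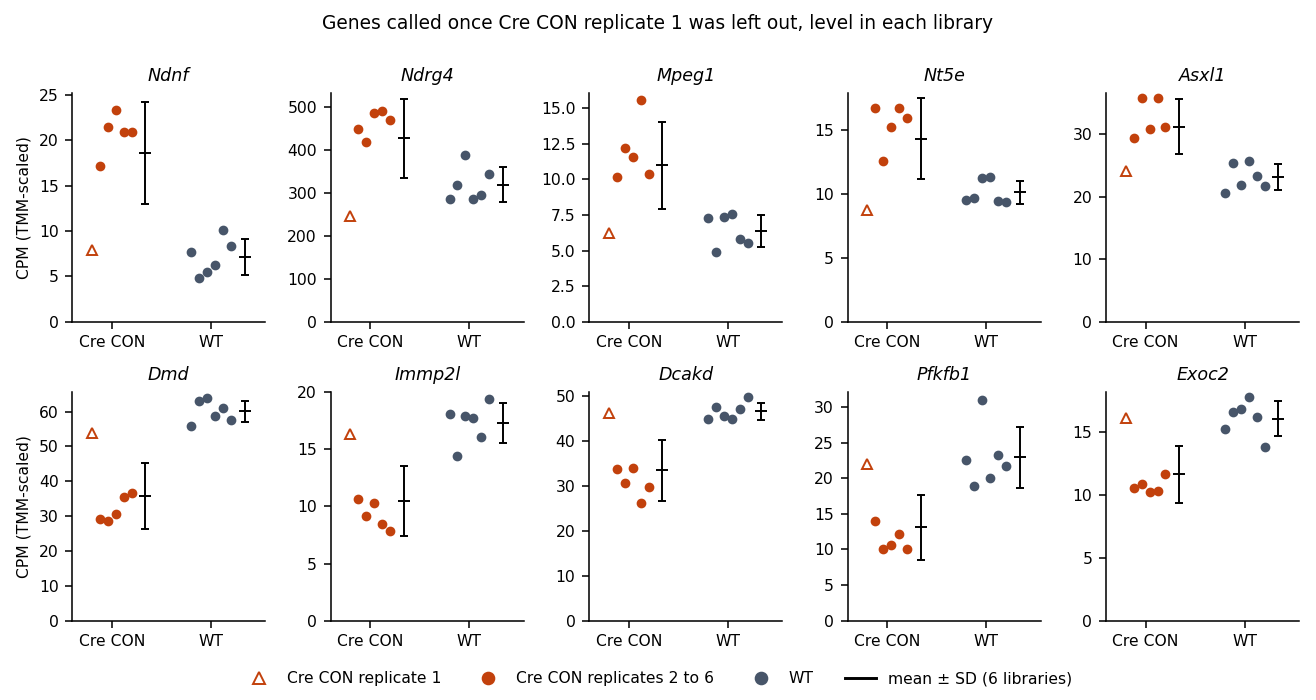
Level in each library of 10 genes called without Cre CON replicate 1, the 5 smallest p-values in each direction among those not already called in the 12 libraries (TMM-scaled CPM, linear axes from 0, Cre CON left, WT right, bars mean ± SD of 6 libraries). The open triangle, Cre CON replicate 1, lies at 53.8 CPM for Dmd while the other Cre CON points lie between 28.6 and 36.5 CPM.

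Further myeloid genes rose once replicate 1 was left out. Mpeg1, the macrophage pore-forming protein perforin-2, had 6.2 CPM in replicate 1 and 10.1 to 15.6 CPM in the other Cre CON libraries, against 4.89 to 7.54 CPM in WT (log2 fold change 0.89, SE 0.13, adjusted p = 0.00212). Lcp1, the leukocyte actin bundler L-plastin, had 16.9 CPM in replicate 1 and 21.6 to 32 CPM in the others, against 13.5 to 17.9 CPM in WT (0.64, SE 0.11, adjusted p = 0.00477). Mmp12, the macrophage elastase, had 0.349 CPM in replicate 1 and 1.24 to 3.88 CPM in the others, against 0.349 to 1.18 CPM in WT. All 5 other Cre CON libraries were above WT, and the log2 fold change of 1.96 (SE 0.34, adjusted p = 0.00633) was the highest of the 54. Ccr2, the chemokine receptor of recruited monocytes, had 1.81 CPM in replicate 1 and 2.13 to 5.42 CPM in the others, against 1.21 to 2.5 CPM in WT (1.09, SE 0.23, adjusted p = 0.0284). Csf1r, the receptor for macrophage colony-stimulating factor, had 40.6 CPM in replicate 1 and 48.3 to 57 CPM in the others, against 37.6 to 45.7 CPM in WT (0.35, SE 0.07, adjusted p = 0.0168). At least 1 of the other Cre CON libraries overlapped WT in Ccr2, and none did in Mpeg1, Lcp1 or Csf1r.

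Among the matrix genes, Col1a2 and Col5a2 joined the calls without replicate 1, although replicate 1 was itself above WT in both. Col1a2, a chain of type I collagen, had 191 CPM in replicate 1 and 166 to 251 CPM in the other Cre CON libraries, against 128 to 163 CPM in WT (log2 fold change 0.41, SE 0.09, adjusted p = 0.0302). Col5a2 had 31.7 CPM in replicate 1 and 27.1 to 39.2 CPM in the others, against 19.5 to 26.4 CPM in WT (0.49, SE 0.10, adjusted p = 0.0302). It lies next to Col3a1 in the genome, with 0 tested genes between them. Col6a1, a chain of type VI collagen, had 99.9 CPM in replicate 1, the highest of all 12 libraries, and 77.5 to 97.3 CPM in the others, against 61 to 76.2 CPM in WT. Its adjusted p was 0.0501 with all 12 libraries and 0.0302 without replicate 1. Sulf2, which trims sulfate from heparan sulfate chains, had 50.5 CPM in replicate 1 and 66.4 to 75.1 CPM in the others, against 42.9 to 58 CPM in WT (0.43, SE 0.07, adjusted p = 0.00533).

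Of further single genes, Gdf15, a stress-induced cytokine, had 1.6 CPM in replicate 1 and 1.46 to 4.19 CPM in the other Cre CON libraries, against 0.276 to 1.11 CPM in WT. All 6 Cre CON libraries were above WT, and the adjusted p was 0.0692 with all 12 libraries and 0.0258 without replicate 1 (log2 fold change 1.54, SE 0.32). Tcap, the titin cap protein of the Z-disc, had 1971 CPM in replicate 1 and 1385 to 2125 CPM in the others, against 2034 to 2764 CPM in WT (-0.48, SE 0.10, adjusted p = 0.0319). Kcnd2, a subunit of the transient outward potassium current, had 20.2 CPM in replicate 1 and 10.6 to 16.2 CPM in the others, against 14.9 to 22.1 CPM in WT (-0.51, SE 0.11, adjusted p = 0.031). Both overlapped WT through at least 1 of the other Cre CON libraries. Slc38a1, a glutamine transporter, had 9.62 CPM in replicate 1 and 12.1 to 18.2 CPM in the others, against 7.95 to 12.3 CPM in WT (0.70, SE 0.12, adjusted p = 0.00412). Pfkp, the platelet-type phosphofructokinase of glycolysis, had 46.6 CPM in replicate 1 and 51.4 to 64.3 CPM in the others, against 33.7 to 52.3 CPM in WT (0.44, SE 0.10, adjusted p = 0.0447).

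Leaving out 1 more library moved the 93 calls to between 41 and 131; the count fell by over 1.5 times without Cre CON replicate 3 (41), WT replicate 6 (51), Cre CON replicate 6 (55) or WT replicate 3 (56). DESeq2 called 245 genes and the fit with no filter 161.

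**Figure D3:**
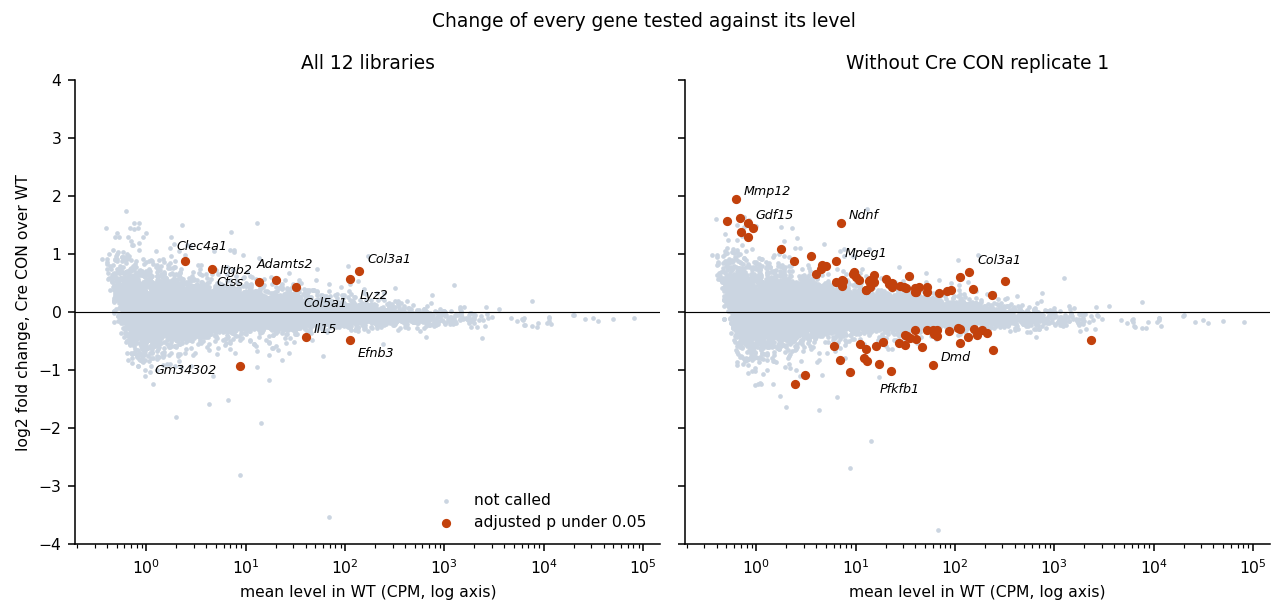
Log2 fold change of Cre CON over WT (vertical axis) against the mean WT level in CPM (horizontal log axis) for every gene tested, with all 12 libraries at left and without Cre CON replicate 1 at right, where genes tested in both fits are drawn. Red points passed an adjusted p of 0.05, 10 in the left panel, and most called genes changed by under 2-fold.

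Gene lists are read against all genes tested: at an unadjusted p under 0.05, 5.08% of all genes were higher and 4.37% lower with 12 libraries, and 5.49% higher and 5.28% lower without replicate 1. Of all genes, 0.0494% were called higher and 0.0212% lower with 12 libraries, and 0.377% and 0.273% without replicate 1. By sign, 7040 of the 14173 genes had a positive and 7133 a negative log2 fold change with 12 libraries. Genes of a list were read in the same libraries, so their signs are not separate observations.

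Of 40 extracellular matrix genes tested, 39 had a positive log2 fold change, 19 had an unadjusted p under 0.05, all of them higher, and 2 were called (6 without replicate 1, all higher). Their median log2 fold change was 0.31, against 0.00 for all genes tested. The summed level of the list ran from 3286 to 4021 CPM in Cre CON (median 3686), against 2668 to 3275 CPM in WT (median 3134), and the groups did not overlap. Col3a1, called above, was part of each sum: 204 of 3286 CPM in Cre CON replicate 4 and 149.8 of 3275 CPM in WT replicate 2. Without Col3a1 the groups overlap through these libraries, so the separation of the sums rests on that call. Col1a1, the other chain of type I collagen, had 121, 163 and 184.97 CPM in the lowest, median and highest Cre CON libraries, against 80.9, 112 and 136 CPM in WT (log2 fold change 0.49, SE 0.13, adjusted p = 0.219). Of 13 fibroblast markers, 12 were positive, 5 had an unadjusted p under 0.05 (all higher) and 1, Col3a1, was called, with a median of 0.18. Their summed level was 3267 to 4495 CPM in Cre CON, against 2733 to 3661 CPM in WT, which overlapped. Fibroblast markers and matrix genes share members, and the part of fibroblast number in the matrix values was not tested.

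Of 18 macrophage markers, 16 had a positive log2 fold change, 12 an unadjusted p under 0.05, all higher, and 1 was called (3 without replicate 1). The median was 0.31. The summed level of the list ran from 428 to 588 CPM in Cre CON (median 471), against 345 to 404 CPM in WT (median 369), with no overlap. Lyz2, called above, was part of each sum: 144 of 432 CPM in Cre CON replicate 1 and 116 of 404 CPM in WT replicate 1. Without Lyz2 the groups overlap through these libraries, so the separation of the sums rests on that call. No marker was at 0 in all 12 libraries. Cd163, the scavenger receptor of resident macrophages, had 12.9, 14.1 and 19.2 CPM in Cre CON, against 10.4, 11.3 and 12.5 CPM in WT (log2 fold change 0.38, SE 0.10, adjusted p = 0.131). Of 19 cytokine genes, 6 were higher and 1 lower at an unadjusted p under 0.05, with a median of 0.25, and the single call was Il15, lower. Ccl8, a chemokine for monocytes, had 1.1, 1.45 and 3.12 CPM in Cre CON, against 0.303, 0.656 and 1.21 CPM in WT (1.17, SE 0.32, adjusted p = 0.165). Cxcl16, a membrane-anchored chemokine, had 7.34, 9.78 and 12.4 CPM in Cre CON, against 6.35, 7.11 and 8.38 CPM in WT (0.41, SE 0.12, adjusted p = 0.232). Of 5 granulocyte and mast cell markers none had an unadjusted p under 0.05, and of 5 lymphocyte markers 1 did.

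Of 39 fatty acid oxidation genes, 34 had a negative log2 fold change, 14 an unadjusted p under 0.05, all lower, and 0 were called by edgeR, with a median of -0.13. Without replicate 1, 22 of the 39 were lower at an unadjusted p under 0.05 and 1 was called. Eci1, an isomerase for unsaturated fatty acids, had 267, 281 and 345 CPM in Cre CON, against 315, 354 and 399.9 CPM in WT (-0.27, SE 0.08, adjusted p = 0.219). Decr1, the reductase for polyunsaturated fatty acids, had 357, 434 and 530.3 CPM in Cre CON, against 439, 533 and 611 CPM in WT (-0.27, SE 0.09, adjusted p = 0.311). In both, replicate 1 was the highest Cre CON library. Over the list, 1 of the 39 genes was below the WT range in replicate 1 and 9 were above it, whereas 15 to 33 were below it in each of the other Cre CON libraries. Such counts per library were not made over all genes tested, so these describe the list only.

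Of 27 genes for branched-chain amino acids and ketones, 26 were negative, 12 had an unadjusted p under 0.05, all lower, and 0 were called by edgeR with 12 libraries, with a median of -0.14. Without replicate 1, 3 were called lower. Bckdhb, a subunit of the branched-chain keto acid dehydrogenase, had 65.8 CPM in replicate 1 and 44.9 to 55.7 CPM in the other Cre CON libraries, against 58.1 to 70.7 CPM in WT (-0.41, SE 0.07, adjusted p = 0.00417). Dbt, the E2 subunit of the same complex, had 59.3 CPM in replicate 1 and 43.4 to 52.9 CPM in the others, against 54.3 to 74 CPM in WT (-0.37, SE 0.08, adjusted p = 0.0287). Pccb, a subunit of propionyl-CoA carboxylase, had 147 CPM in replicate 1 and 118 to 141 CPM in the others, against 135 to 166 CPM in WT (-0.29, SE 0.07, adjusted p = 0.0447). Bckdhb and Dbt in the other 5 Cre CON libraries lay below all WT libraries, and Pccb overlapped them.

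All 38 nuclear genes of the respiratory chain had a negative log2 fold change, with a median of -0.12, of which 9 had an unadjusted p under 0.05 and 0 were called by edgeR. Uqcrc1, a core subunit of complex III, had 1396, 1503 and 1721 CPM in Cre CON, against 1636, 1701 and 1956 CPM in WT (-0.19, SE 0.07, adjusted p = 0.364). Cox7a1, the muscle form of a complex IV subunit, had 370.0, 464 and 533 CPM in Cre CON, against 422, 591 and 654 CPM in WT (-0.32, SE 0.11, adjusted p = 0.322). The groups overlapped in both. Per library, the median deviation of this list from the WT mean was -0.28, -0.23 and -0.19 in Cre CON replicates 5, 6 and 3 and between -0.07 and -0.01 in the other Cre CON libraries, against -0.15 to 0.14 in WT.

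**Figure D4:**
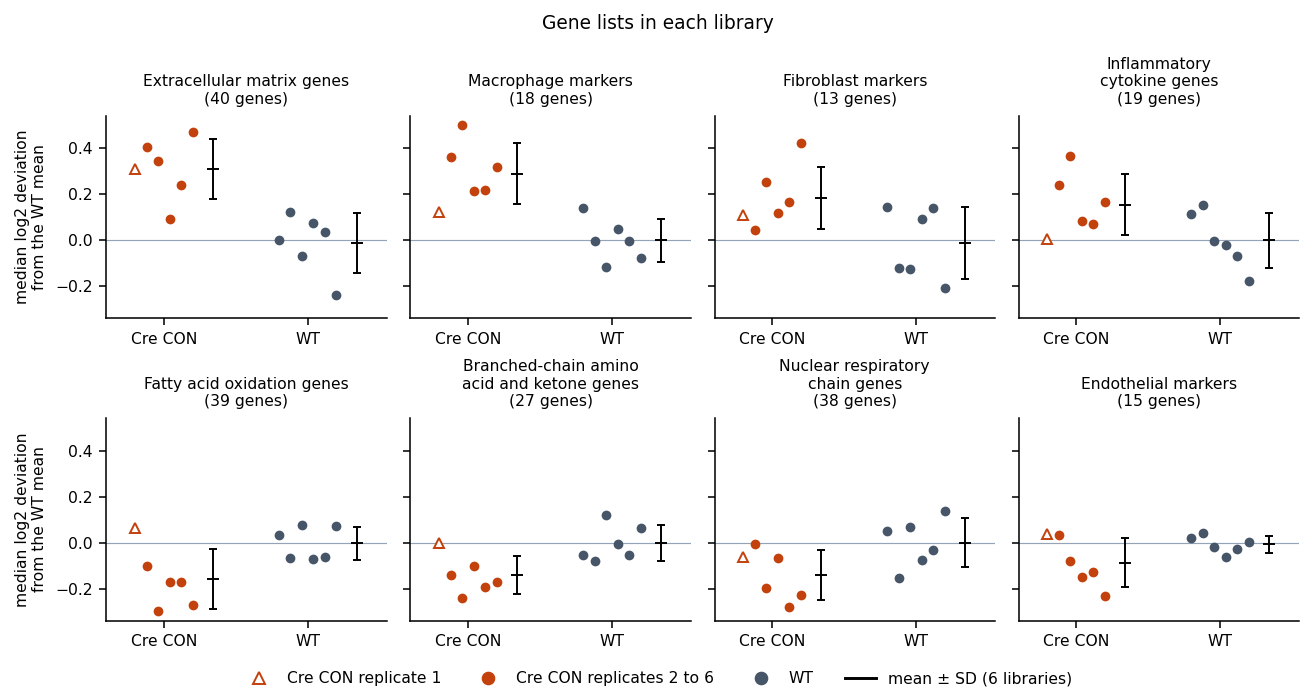
Median over a list's genes of the log2 deviation of each library from the mean of the WT libraries, on log2(CPM + 0.5), for 8 lists, with Cre CON (replicate 1 as the open triangle) left of WT and bars for mean ± SD of 6 libraries. Replicate 1 lies at 0.07 for fatty acid oxidation genes, where the other Cre CON libraries lie between -0.30 and -0.10, and at 0.31 for extracellular matrix genes, within the Cre CON range.

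Of 20 sarcomere genes, 5 were lower at an unadjusted p under 0.05 and 0 were called by edgeR (1, Tcap, without replicate 1), with a median of -0.06. Myl2, the regulatory light chain of ventricular myosin, had 6368, 7071 and 7985 CPM in Cre CON, against 7338, 8427 and 10016 CPM in WT (-0.25, SE 0.08, adjusted p = 0.254). The 13 cardiomyocyte markers had a median of -0.08 and the 15 endothelial markers -0.06, with 1 higher and 3 lower and with 4 lower at an unadjusted p under 0.05, and 0 called in either. Of 24 hypertrophy and fetal genes, 5 were higher and 2 lower at that p, with a median of 0.07 and 0 called. Nppb, the B-type natriuretic peptide, had 116, 179.7 and 293 CPM in Cre CON, against 84.5, 111 and 129 CPM in WT (0.80, SE 0.24, adjusted p = 0.314). Acta2, smooth muscle α-actin, had 199, 337 and 522 CPM in Cre CON, against 145, 170.7 and 186 CPM in WT, which did not overlap (0.97, SE 0.21, adjusted p = 0.145). Acta2 is also a mural marker. Myh11, smooth muscle myosin, had 38.8, 94.1 and 137 CPM in Cre CON, against 39.3, 54.4 and 60.8 CPM in WT, which overlapped. Of the 11 mural markers tested, 7 were positive and 4 negative, with a median of 0.11. At an unadjusted p under 0.05, 3 were higher with 12 libraries, and 1 was higher and 2 lower without replicate 1. The part of smooth muscle content was not tested.

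For the p53 response and DNA damage list, 5 of 32 genes were higher and 1 lower at an unadjusted p under 0.05, 0 were called by edgeR and the median was 0.06. Cdkn1a, the cell cycle inhibitor p21, had 13.7, 17.6 and 29 CPM in Cre CON, against 7.1, 9.42 and 12.3 CPM in WT. All 6 Cre CON libraries were above WT, with a log2 fold change of 1.00 (SE 0.19) and an adjusted p of 0.0837. Phlda3, a p53 target that restrains AKT, had 16, 18.2 and 25.7 CPM in Cre CON, against 9.96, 12 and 18.2 CPM in WT (0.57, SE 0.15, adjusted p = 0.159). Of 29 stress and unfolded protein response genes, 3 were higher and 1 lower at that p with a median of 0.01. Of 24 clock genes 2 were higher and 2 lower with a median of -0.06, and without replicate 1 none was higher and 3 were lower. Of 25 immediate early genes and of 11 atrial markers none had an unadjusted p under 0.05.

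Genes that moved in every Cre-carrying line were then read in Cre CON. In CBK 871 of 14928 genes (5.83%) were called against BMAL1 FLOX, in CEK 25 of 14271 (0.175%) against E4BP4 FLOX, and in CBK/CEK 725 of 14725 (4.92%) against BMAL1/E4BP4 FLOX. The lines are used as labelled: Nfil3 had a log2 fold change of -3.61 in CEK over E4BP4 FLOX, whereas the count of Arntl had one of 3.01 in CBK over BMAL1 FLOX, and a count over a whole gene does not show which exons were read. Of 14035 genes tested in these lines, 9 (0.0641%) were called in the same direction in all of them: Ndnf, Nppb, Clu and Rtn4r higher, and Dcakd, Efnb3, Pfkfb1, Ppp2r3a and Wnk2 lower. All 9 had that sign in Cre CON against WT, 1 of them was called there with 12 libraries and 5 without replicate 1. Of all genes tested, 54.3%, 54.6% and 59.1% shared their sign with CBK, CEK and CBK/CEK, each line taken singly. The share of all genes called in Cre CON was 0.0706% with 12 libraries and 0.65% without replicate 1. Clu, Rtn4r and Wnk2 were chosen after their values were seen.

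Ndnf was 1.19 (SE 0.18) higher in CBK, 1.38 (SE 0.17) in CEK and 1.5 (SE 0.20) in CBK/CEK on the log2 scale, beside 1.39 (SE 0.26) in Cre CON. Ppp2r3a, a regulatory subunit of protein phosphatase 2A, was -0.76 (SE 0.11) in CBK, -0.59 (SE 0.08) in CEK and -0.59 (SE 0.10) in CBK/CEK, beside -0.55 (SE 0.13) in Cre CON. Its level was 217 CPM in Cre CON replicate 1 and 116 to 176 CPM in the other Cre CON libraries, against 219 to 276 CPM in WT. Efnb3 was -1.34 (SE 0.13) in CBK, -0.61 (SE 0.11) in CEK and -0.74 (SE 0.17) in CBK/CEK, beside -0.47 (SE 0.08) in Cre CON. Wnk2, a kinase that regulates ion transport, was -1.16 (SE 0.15) in CBK, -0.57 (SE 0.12) in CEK and -1.20 (SE 0.14) in CBK/CEK, beside -0.19 (SE 0.06) in Cre CON. Clu, the secreted chaperone clusterin, was 0.65 (SE 0.12) in CBK, 0.44 (SE 0.08) in CEK and 0.89 (SE 0.08) in CBK/CEK, beside 0.29 (SE 0.09) in Cre CON. By library, replicate 1 of Cre CON was beyond the WT range in that direction in 3 of the 9 genes, and the other Cre CON libraries in 5 to 9 of the 9. Cre CON replicates 5 and 6 were each beyond the WT range in the other direction in 1 of the 9, and the remaining Cre CON libraries in none. These counts by library were not made over all genes tested.

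Whether the change in Cre CON differed from that in a line was tested in the fit of all 48 libraries. Of 16623 genes, the difference passed an adjusted p of 0.05 in 411 (2.47%) for the CBK line, in 1 (0.00602%) for the CEK line, which was Nfil3, and in 223 (1.34%) for the CBK/CEK line. ENSMUSG00000119584 alone held 4.58% to 33.4% of counts in the CEK and E4BP4 FLOX libraries, against 0.534% to 1.19% in Cre CON and WT. It also held 34.8% in BMAL1/E4BP4 FLOX replicate 6 and 13.3% in CBK replicate 3. The part of this library composition in the number of genes called per line was not tested. For Efnb3 the change in Cre CON was less negative than in CBK by 0.87 (adjusted p = 0.00387), and for Dcakd by 0.58 (adjusted p = 0.008). Against CBK/CEK, Wnk2 differed by 1.00 (adjusted p = 0.00034) and Clu by -0.60 (adjusted p = 0.00155). For Ndnf the difference was 0.19 (SE 0.29) from CBK, -0.01 (SE 0.29) from CEK and -0.12 (SE 0.29) from CBK/CEK, with adjusted p between 0.927 and 0.998. For Dmd, which was -0.92 (SE 0.13) in CBK, -0.47 (SE 0.16) in CEK and -0.80 (SE 0.17) in CBK/CEK, no difference passed (adjusted p between 0.914 and 1). A difference that misses the threshold does not show that the lines responded alike.

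Of the 93 genes called without Cre CON replicate 1, 88 of 93 had the same sign in CBK, 89 of 92 tested in CEK and 82 of 93 in CBK/CEK, beside 54.3%, 54.6% and 59.1% of all genes tested. Called in the same direction were 34 in CBK, 10 in CEK and 41 in CBK/CEK. In the opposite direction were 1 in CBK, 0 in CEK and 1 in CBK/CEK. Over all genes tested, 5.83%, 0.175% and 4.92% were called in these lines in either direction. The difference from Cre CON passed in 15 of the 93 for CBK, 0 for CEK and 9 for CBK/CEK, beside 2.47%, 0.00602% and 1.34% of all genes. These lines do not share control libraries with Cre CON. Col3a1 and Lyz2 belonged to those not called elsewhere: Col3a1 was 0.26 (SE 0.19) in CBK, 0.38 (SE 0.16) in CEK and 0.47 (SE 0.14) in CBK/CEK, with adjusted p of 0.587, 0.454 and 0.0583. Lyz2 was 0.11 (SE 0.13) in CBK, 0.53 (SE 0.13) in CEK and 0.11 (SE 0.17) in CBK/CEK, with adjusted p of 0.774, 0.107 and 0.847.

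The matrix, macrophage, fatty acid oxidation, branched-chain amino acid and respiratory chain lists were read in the same lines. The extracellular matrix list had a median log2 fold change of 0.17 in CBK, 0.04 in CEK and 0.06 in CBK/CEK, beside 0.31 in Cre CON. The macrophage list had 0.07 in CBK, 0.33 in CEK and -0.08 in CBK/CEK, beside 0.31 in Cre CON. The fatty acid oxidation list had -0.20 in CBK, -0.19 in CEK and -0.07 in CBK/CEK, beside -0.13 in Cre CON, and the list for branched-chain amino acids and ketones had -0.17, -0.10 and -0.16 in CBK, CEK and CBK/CEK, beside -0.14 in Cre CON. The nuclear respiratory chain list had 0.004 in CBK, -0.01 in CEK and -0.07 in CBK/CEK, beside -0.12 in Cre CON. The medians of the fatty acid oxidation and branched-chain amino acid lists were thus negative in all 4 lines, that of the respiratory chain list was within 0.01 of 0 in CBK and CEK, and that of the macrophage list was negative in CBK/CEK. No test was made of a difference between lists.

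Some values rest on counting that could not be resolved. The sources used here do not state strandedness, and Dcakd, Pfkfb1, Ppp2r3a, Asxl1, Sulf2, Ssbp2, Naa38, Pfkp, Csf1r, Cxcl16, Myl2, Myh6 and Tuba4a overlap a gene on the opposite strand in the annotation used for names, so their counts may hold reads of that gene. Asxl1, a chromatin regulator, had 24.1 CPM in replicate 1 and 29.4 to 35.8 CPM in the other Cre CON libraries, against 20.7 to 25.7 CPM in WT (0.50, SE 0.08, adjusted p = 0.00379 without replicate 1). Ssbp2, a single-stranded DNA-binding protein, had 26.3 CPM in replicate 1 and 16.7 to 23.2 CPM in the others, against 25.5 to 29.7 CPM in WT (-0.52, SE 0.09, adjusted p = 0.00412). Naa38, a subunit of an N-terminal acetyltransferase, had 9.83 CPM in replicate 1 and 6.57 to 9.06 CPM in the others, against 8.75 to 14.5 CPM in WT (-0.63, SE 0.12, adjusted p = 0.0168). Tuba4a, an α-tubulin, had 422, 486 and 556 CPM in the lowest, median and highest Cre CON libraries, against 515, 624 and 781 CPM in WT (-0.43, SE 0.09, adjusted p = 0.0765 with 12 libraries). The genes called lower without replicate 1 had a median span of 48.9 kb and those called higher 31.1 kb, beside 21.9 kb for all genes tested; 3 of 39 and 1 of 54 spanned over 400 kb, beside 201 (1.41%) of all.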

How the data were processed

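RNA of both ventricles (RNeasy mini plus, 1.3 ug total RNA, SMARTER mRNA-Seq kit, per the labels) was sequenced. The deposited table holds raw counts per gene and library. The submitters' processing notes name HTSeq 0.11.1, STAR 2.7.9a, bcl2fastq 2.18.0.12 and build GRCm39; annotation and strandedness are not stated in the sources used here.

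The 5 HTSeq summary lines (28.4% to 31.8% of records) were left out. Of 53700 genes, 52093 (97.0%, 99.0% of counts) matched a GENCODE M21 (GRCm38) symbol by ID, used for names, overlaps and neighbours only. No pair of libraries was identical. Genes were kept by filterByExpr (minimum count 10), scaled by TMM and tested with edgeR 4.0.16 (robust quasi-likelihood, R 4.3.3, limma 3.58.1) on the 12 libraries, with Benjamini-Hochberg adjustment over all genes tested. The median biological coefficient of variation was 12.4%, and 12.5% without Cre CON replicate 1. SE is the absolute log2 fold change over the square root of F. Each other line was fitted on its own 12 libraries, and differences between lines in 1 fit of 8 group means over 48 libraries. Counting error matters most for genes near 1 CPM. Named genes were those called in the fits, the smallest p-values in each direction without Cre CON replicate 1 and up to 4 per list; the members and the 31 lists (17 pathways, 14 cell types, 641 genes) were chosen with earlier results of these data known. Alternatives were RLE scaling, DESeq2 1.42.0, other filters, the 48-library fit, a replicate block, the number in the library name (up to 7 against 20 and over), non-robust fits, WT replicate 1 thinned to the depth of the others, and each library left out. The test was checked on counts simulated from the means and spreads of these libraries, with no outlying library put in. That check therefore cannot speak to the pull of single libraries on the calls.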

Additional observations from a re-analysis of the deposited data

Results flagged for a closer look

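Single libraries far from the other 5 of their group, by Dixon's test at 95%, were seen in 21 of the 178 groups tested over named genes and in depth; chance alone gives about 1 in 20 groups. In Cre CON replicate 1 these were Gm34302 (6.48 CPM), Ndrg4 (246 CPM), Sulf2 (50.5 CPM), Dmd (53.8 CPM), Immp2l (16.4 CPM), Pfkfb1 (22 CPM), Exoc2 (16.1 CPM), Kcnv2 (15 CPM) and Armc2 (38.5 CPM). These 9 genes were named because they were called in fits that compare the same libraries, 8 of them only without replicate 1, so the count is a description of how they were chosen too. In Cre CON replicate 3 they were Lcp1 (32 CPM), Ccl8 (3.12 CPM) and Aqp1, a water channel (251 CPM), in replicate 5 Cd163 (19.2 CPM) and in replicate 6 Postn, the matrix protein periostin (74.1 CPM). In WT they were Myh6 (22496 CPM), Pfkfb1 (31 CPM) and Kcnv2 (8.12 CPM) in replicate 3, Naa38 (8.75 CPM) in replicate 2, Mmp12 (1.18 CPM) in replicate 4, Col1a2 (128 CPM) in replicate 6 and the assigned counts of replicate 1 (126338949).

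Changes that differed between Cre CON and a floxed line, as the log2 change in Cre CON minus that in the line (edgeR, fit of all 48 libraries, adjusted over 16623 genes), were as follows; each is also past the threshold without Cre CON replicate 1 unless said otherwise. Arntl differed by -2.35 from CBK (adjusted p = 0.00128) and by -2.93 from CBK/CEK (adjusted p = 8.04e-05). Nfil3 differed by -1.88 from CBK (adjusted p = 5.35e-09), by 3.56 from CEK (adjusted p = 6.23e-15) and by 2.31 from CBK/CEK (adjusted p = 4.56e-10). Of the 10 genes called in Cre CON, Efnb3 (0.87), Il15 (0.64), Clec4a1 (1.03) and Gm34302 (1.80) differed from CBK with adjusted p of 0.00387, 0.0329, 0.0406 and 0.00829. Without Cre CON replicate 1 those of Il15 and Clec4a1 missed the threshold (adjusted p = 0.0767 and 0.0562). Gm34302 differed from CBK/CEK by 2.01 (adjusted p = 0.00381).

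Cdkn1a differed by -2.82 from CBK and -2.43 from CBK/CEK (adjusted p = 1.01e-07 and 4.96e-06), Pfkp by -1.18 and -0.99 (5.5e-07 and 3.15e-05), Nt5e by -1.36 and -1.17 (0.000167 and 0.0022), Armc2 by 1.63 and 1.13 (3.77e-06 and 0.00206), Tcap by 1.48 and 2.02 (0.00236 and 3.82e-05) and Wnk2 by 0.95 and 1.00 (0.000441 and 0.00034). From CBK alone, Dcakd differed by 0.58 (adjusted p = 0.008), Pfkfb1 by 0.95 (0.0216, and 0.0848 without Cre CON replicate 1), Kcnv2 by 1.29 (0.000958) and Bckdhb by 0.49 (0.00976). From CBK/CEK alone, Clu differed by -0.60 (0.00155) and Rtn4r, a receptor for myelin inhibitors, by -1.29 (0.0396).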

How the results depend on the processing

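The 10 calls of the 12 libraries became 10 with RLE scaling, 11 with a filter of 1 CPM in 6 libraries, 13 with non-robust fits, 9 with the library number as a covariate (8 of the 10 among them) and 9 with WT replicate 1 thinned, but 128 with DESeq2 (which holds all 10), 59 with no filter on low counts and 3 in the fit of all 48 libraries (none of the 10; Ndnf, Dcakd and Ppp2r3a). With 1 library left out the count lay between 1 and 93, the latter without Cre CON replicate 1. Without Cre CON replicate 1, the 93 calls became 245 with DESeq2 and 161 with no filter, and lay between 41 and 131 with 1 further library left out, an alternative chosen after seeing the data. For the CEK line, 2 differences from Cre CON passed instead of 1 both in the fit of 24 libraries and without Cre CON replicate 1. Nfil3, which was not called, lay between -0.106 and 0.0366 with 1 library left out and so changed sign in 2 of those fits (without Cre CON replicate 4 or WT replicate 6); the cause was not tested. Of 2163 recomputed changes of named genes 1974 kept direction and call, 73 lost and 114 gained a call. Of 651 recomputed list medians 643 moved by less than their spread.

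The replicate numbers did not pair the samples: same-numbered libraries correlated between -0.05 and 0.22 in their deviations, and 1 of 6 correlated best with its own number. A replicate block gave 11 calls, 7 of them among the 10. Genes under about 1 CPM, such as Mmp12 in WT, are limited by depth.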

Other observations

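Several further genes changed by more than 2-fold without Cre CON replicate 1; they are named here after their values were seen. Itgax, the CD11c integrin of dendritic cells and some macrophages, had 0.139 CPM in replicate 1 and 0.607 to 2.25 CPM in the other Cre CON libraries, against 0.242 to 0.748 CPM in WT (log2 fold change 1.58, edgeR adjusted p = 0.0302). Adam8, a leukocyte metalloprotease, had 0.627 CPM in replicate 1 and 1.48 to 2.38 CPM in the others, against 0.233 to 1.27 CPM in WT (1.62, adjusted p = 0.0118). Tnc, the matrix protein tenascin C, had 0.627 CPM in replicate 1 and 1.19 to 2.78 CPM in the others, against 0.363 to 1.13 CPM in WT (1.38, adjusted p = 0.0334). Lyz1 had 1.19 CPM in replicate 1 and 1.52 to 3.41 CPM in the others, against 0.518 to 1.19 CPM in WT (1.29, adjusted p = 0.0302). Among those that fell, Cth, which makes cysteine from cystathionine, had 4.32 CPM in replicate 1, above every WT library, and 1.04 to 1.7 CPM in the others, against 2.01 to 3.74 CPM in WT (-1.08, adjusted p = 0.018). Poln, a DNA polymerase, had 3.97 CPM in replicate 1 and 0.429 to 1.7 CPM in the others, against 1.63 to 3.15 CPM in WT (-1.24, adjusted p = 0.0441). All of these levels are under 5 CPM, where counting error adds to the spread between animals.

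The lists not described above had 0 calls in the 12 libraries by edgeR. At an unadjusted p under 0.05, where 5.08% of all genes tested were higher and 4.37% lower, 1 of 41 ion channel and calcium handling genes was higher and 3 lower, 2 of 38 glucose and glycogen genes were higher and 4 lower (7 lower without Cre CON replicate 1), 3 of 11 mural markers were higher (without Cre CON replicate 1, 1 higher and 2 lower), 1 of 29 interferon response genes was higher (none without Cre CON replicate 1), 1 of 23 cell cycle genes was lower and 1 of 13 mitochondrial genome transcripts was lower. One gene each was higher among 6 Schwann and neuron markers and 6 skeletal muscle markers, and none of 9 conduction, 8 adipocyte, 9 mesothelial and 6 erythroid markers had such a p. The erythroid markers had a median log2 fold change of -0.23, with all 6 negative, and a summed level of 351 to 903 CPM in Cre CON, against 449 to 983 CPM in WT.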
